A study of Mus musculus with 9 samples.

Results

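The colon of mice given dextran sulfate sodium (DSS), labelled Model, was compared with the colon of untreated mice, labelled Blank, across every gene that the deposited count table allowed to be tested. These are 6 of the 9 libraries of the series, 3 per group, and 14921 of the 21959 genes in the table passed the filter on low counts. All mice were wild type. Blank mice had no treatment and Model mice had DSS. The other group of 3 libraries, labelled CDs, had DSS with carbon dots made from charred lotus nodes, and entered the fit only to share the estimate of spread. The dose and days of DSS, the colon segment, and the age and sex of the mice are not stated in what was read here. The series describes the replicates as biological.

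DSS is a sulfated polysaccharide given in drinking water. It injures the epithelium that lines the colon, after which leukocytes enter the wall, crypts are lost, and fibroblasts and vessels of the wound bed remodel the matrix. The colon epithelium absorbs salt and water, burns butyrate made by bacteria, and carries many enzymes that conjugate foreign compounds. RNA was taken from colon tissue as a whole. A lower value can therefore reflect fewer cells of a type or less RNA per cell, and the table cannot tell these apart.

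Read totals ran from 13868864 to 19940300 per library over the 9 libraries, so 3 reads, used here as the floor of detection, amounted to 0.142 to 0.221 CPM. CPM is the read count relative to library size, after scaling by trimmed means (TMM). edgeR's quasi-likelihood test with Benjamini-Hochberg adjustment called 6574 genes at an adjusted p under 0.05, which is 44.1% of those tested. Of these, 3654 were higher in Model (24.5%) and 2920 were lower (19.6%), and the median log2 fold change over all tested genes was -0.03. A change of at least 2-fold was called for 2453 genes upward (16.4%) and 964 downward (6.46%). Model and Blank did not overlap in CPM for 61.0% of tested genes, with 30.0% above and 31.0% below Blank.

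4 libraries carried transcripts of another organ. Model 3 and, at a lower level, Model 1 held pancreatic exocrine transcripts, and Blank 2 and, at a lower level, Blank 3 held prostate and seminal vesicle transcripts. Taking out the listed genes of these organs left 3645 genes higher and 2920 lower. Genes of the same pattern outside the lists stayed in, such as Rnase1 at 2844 CPM in Model 3 and Tcaf3 at 470 CPM in Blank 2. Without Model 1 and Model 3 the counts were 2951 and 1858, with 1 Model library left. Without Blank 2 and Blank 3 they were 1218 and 318, with 1 Blank library left. The count of lower genes was sensitive to single libraries: it was 1842, 1770 and 1885 without Blank 1, Blank 2 or Blank 3, 1568 without Model 2 and 1478 without Model 3. A gene is called stable below when it was called in the full fit and in each of the 6 fits that left out 1 Blank or Model library, its fold change moved by less than 1.5 times in each, its groups did not overlap, and its mean FPKM, a level per gene length, was at least 5 in either group. There were 1337 stable genes higher in Model (8.96%) and 898 lower (6.02%).

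The 3 Model libraries took a regular order. Among the stable genes that were higher, Model 1 was the lowest of the 3 Model libraries for 1157 of 1337 genes (86.5%) and Model 2 was the highest for 906 (67.8%). Among the stable genes that were lower, Model 1 was the highest of the 3 for 732 of 898 (81.5%) and Model 2 the lowest for 602 (67.0%). Model 1 thus lay nearest to Blank in both directions. Its Euclidean distance to the Blank libraries on log2 CPM was 119.5 to 127, against 154 to 161 for Model 2 and Model 3, and the Blank libraries were 52.8 to 60.7 apart. These distances were taken over all tested genes, transcripts of other organs included. The pancreatic ones add to the distances of Model 3 and Model 1, by an amount that was not tested.

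**Figure D1:**
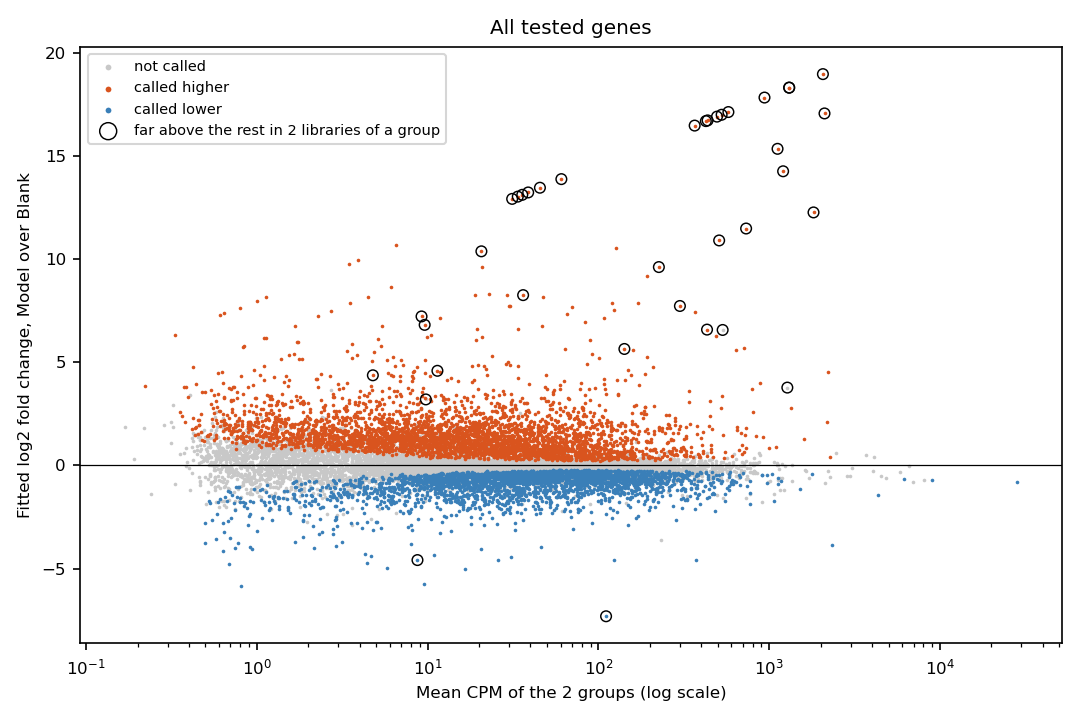
Fitted log2 fold change of Model over Blank (vertical axis) against the mean CPM of both groups (horizontal axis, log scale) for the 14921 tested genes, with called genes in colour and circles around tested genes that were far above the rest in 2 libraries of a group. The circled genes at the top are mostly pancreatic transcripts of Model 3 and Model 1, whose fitted fold changes against 0 reads in Blank are no measure of size.

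The steepest rises among stable genes were led by Cemip, which binds hyaluronan and promotes its breakdown. This ranking left out the usual inflammation markers and the lists of pancreatic, prostate and seminal vesicle, and hemoglobin and erythroid genes. Cemip stood at 0.643, 1.10 and 1.33 CPM in Blank 1 to 3 and 129, 279 and 310.0 CPM in Model 1 to 3, a change of log2 fold change 7.88 ± 0.71 (SE), adjusted p = 0.000262. The matrix protein osteopontin, Spp1, was near the floor in untreated colon, at 0.0643, 0.343 and 0.369 CPM in Blank 1 to 3 and 5.30, 29.9 and 27.2 CPM in Model 1 to 3 (log2 fold change 6.32 ± 0.80 (SE), adjusted p = 0.00063). Model 1 was the lowest treated library for both. The long pentraxin Ptx3, a soluble pattern recognition protein, had 0.193, 0.412 and 0.148 CPM in Blank 1 to 3 and 17.7, 18.4 and 22.6 CPM in Model 1 to 3 (log2 fold change 6.24 ± 0.68 (SE), adjusted p = 0.000386), with the 3 Model libraries closer together than for Spp1. Chil1, a chitinase-like protein without chitinase activity, stood at 0.836, 0.343 and 0.443 CPM in Blank 1 to 3 and 21.2, 50.2 and 42.4 CPM in Model 1 to 3 (log2 fold change 6.10 ± 0.46 (SE), adjusted p = 0.000176).

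Secreted proteins that are less often discussed followed, with smaller changes. Pi15, a protein of the CAP family named as a peptidase inhibitor, measured 3.47, 5.69 and 3.54 CPM in Blank 1 to 3 and 92.5, 283 and 165 CPM in Model 1 to 3 (log2 fold change 5.41 ± 0.67 (SE), adjusted p = 0.000568). Lgi2, a secreted leucine-rich repeat protein of a family known from the nervous system, measured 5.40, 4.73 and 5.98 CPM in Blank 1 to 3 and 107, 261 and 219.9 CPM in Model 1 to 3 (log2 fold change 5.19 ± 0.36 (SE), adjusted p = 0.000162). Chrdl2, a chordin-like antagonist of bone morphogenetic proteins, rose from a Blank mean of 1.78 to a Model mean of 57.3 CPM (log2 fold change 5.0 ± 0.34 (SE), adjusted p = 0.000162). The aggrecanase Adamts4 went from a mean of 5.49 to 165 CPM (log2 fold change 4.91 ± 0.46 (SE), adjusted p = 0.000275). Each of these genes was lowest in Model 1 and highest in Model 2 among the treated libraries. The remaining members of the 12 largest rises were the EGF receptor ligand Ereg (6.28 ± 0.59 on the log2 scale), the myeloid membrane protein Mcemp1 (5.10 ± 0.60), the secreted glycoprotein Lrg1 (5.10 ± 0.63) and the serine protease inhibitor Serpina3f (4.81 ± 0.68).

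Promoter sequence is shown for 4 risers chosen because they hold the motif of C/EBP factors, a family known from acute phase genes, which was counted over all tested genes. RefSeq promoter windows (GRCm38.p6) were matched by symbol for 11723 of the 14921 tested genes, with 14949 windows of 250 bases before a gene start. The C/EBP motif TTGCNNAA, searched on both strands, lay in 8.02% of all windows, in 10.5% of windows of genes called higher by at least 2-fold, in 9.64% of those called lower by at least 2-fold, and in 20% of those called higher by at least 8-fold (55 of 275 windows). The AP-1 motif TGANTCA gave 5.06%, 6.77%, 6.53% and 12.4% in the same order. Of 7 motifs counted, the other 5 also had larger shares in the 8-fold set than in all windows. A higher share there was thus not particular to C/EBP. CDX2 (TTTATNGC) went from 1.74% to 4.73% (13 of 275 windows) and NF-kB (GGGA, any base, TTTCC) from 0.415% to 2.55% (7 windows). STAT (TTCCNGGAA) went from 1.02% to 1.45% (4 windows), HNF4 (CAAAGTCCA) from 0.388% to 0.727% (2 windows) and HNF1 (GTTAAT, any base, ATT) from 0.221% to 0.727% (2 windows). For STAT, HNF4 and HNF1 so few windows cannot carry a difference. Median GC content was 59.2% over all windows, 56.8% in each set of at least 2-fold and 50% in the 8-fold set. Base composition thus moved with the motif shares, and its part was not tested. Transcripts of other organs were not left out of these sets. Of the genes far above the rest in Model 3 and Model 1, mostly pancreatic, 32 were called higher, and their part in the shares was not tested. The 250 bases before the start of each gene are given 5′ to 3′ in the direction of the gene, with matches to the C/EBP motif in capitals, at chr3:66219637-66219886 (plus strand) for Ptx3, chr5:104435942-104436191 (plus strand) for Spp1, chr17:57228137-57228386 (minus strand) for the complement component C3, and chr12:104214294-104214543 (plus strand) for Serpina3f.
Ptx3: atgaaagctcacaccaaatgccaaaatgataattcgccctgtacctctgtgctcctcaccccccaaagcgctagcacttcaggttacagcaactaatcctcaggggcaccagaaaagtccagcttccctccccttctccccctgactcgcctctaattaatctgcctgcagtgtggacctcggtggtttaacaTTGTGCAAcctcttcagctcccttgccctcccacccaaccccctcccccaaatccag
Spp1: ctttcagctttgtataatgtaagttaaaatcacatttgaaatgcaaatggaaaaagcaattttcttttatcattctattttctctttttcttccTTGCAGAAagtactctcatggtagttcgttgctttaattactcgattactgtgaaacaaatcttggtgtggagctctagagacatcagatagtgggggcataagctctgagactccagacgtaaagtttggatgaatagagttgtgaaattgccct
C3: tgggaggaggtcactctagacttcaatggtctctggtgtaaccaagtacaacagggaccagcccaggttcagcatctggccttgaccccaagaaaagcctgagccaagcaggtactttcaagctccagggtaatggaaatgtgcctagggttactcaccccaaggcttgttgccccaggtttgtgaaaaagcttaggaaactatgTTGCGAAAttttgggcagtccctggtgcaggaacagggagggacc
Serpina3f: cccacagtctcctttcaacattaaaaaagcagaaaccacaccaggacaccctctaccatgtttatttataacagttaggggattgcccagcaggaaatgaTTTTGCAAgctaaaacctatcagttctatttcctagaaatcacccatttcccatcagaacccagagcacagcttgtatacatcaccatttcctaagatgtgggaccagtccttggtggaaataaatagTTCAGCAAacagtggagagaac
The matches started 57 bases before the gene start in Ptx3, 156 in Spp1 and 45 in C3, and 150 and 22 in Serpina3f. A match describes these letters and is not evidence of binding.

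By amount of RNA the order differed. The largest gain in mean CPM among stable genes was Igfbp5, an insulin-like growth factor binding protein, at 139, 206 and 205 CPM in Blank 1 to 3 and 1924, 6518 and 4329 CPM in Model 1 to 3 (log2 fold change 4.54 ± 0.46 (SE), adjusted p = 0.000329). Grem1, a secreted bone morphogenetic protein antagonist made by crypt-base stroma, stood at 103, 94.3 and 122 CPM in Blank 1 to 3 and 1006, 2258 and 1738 CPM in Model 1 to 3 (log2 fold change 3.97 ± 0.30 (SE), adjusted p = 0.000176). C3, the central protein of complement, whose promoter is shown above, had 120.5, 93.4 and 123 CPM in Blank 1 to 3 and 905, 2043 and 1459 CPM in Model 1 to 3 (log2 fold change 3.71 ± 0.32 (SE), adjusted p = 0.000246). The other 5 of the 8 largest gains were Col3a1 (2.12 ± 0.25), the small proteoglycan Dcn (2.79 ± 0.40), the ferritin heavy chain Fth1 (1.27 ± 0.24), the basement membrane collagen Col4a1 (2.60 ± 0.30) and Ereg. Of these 8 genes, Fth1 had the smallest log2 fold change.

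The deepest falls included enzymes of the epithelium and genes of no single pathway. Ugt2b35, which adds glucuronic acid to lipophilic compounds, had 43.7, 54.5 and 50.6 CPM in Blank 1 to 3 and 3.49, 1.09 and 1.88 CPM in Model 1 to 3 (log2 fold change -4.56 ± 0.60 (SE), adjusted p = 0.000737). Sult1a1, a phenol sulfotransferase, had 262, 249 and 276 CPM in Blank 1 to 3 and 43.5, 42.9 and 19.0 CPM in Model 1 to 3 (log2 fold change -2.90 ± 0.48 (SE), adjusted p = 0.00189). Within Model the lowest library was Model 2 for Ugt2b35 and Model 3 for Sult1a1. The serotonin receptor Htr4, which promotes secretion and motility, stood at 36.4, 47.5 and 28.5 CPM in Blank 1 to 3 and 8.42, 2.99 and 4.02 CPM in Model 1 to 3 (log2 fold change -2.88 ± 0.39 (SE), adjusted p = 0.000807), while the serotonin-gated channel subunit Htr3a rose (2.19 ± 0.27). Clec2e, a lectin-like protein (-3.28 ± 0.49), the carboxylesterase Ces1e (-2.91 ± 0.33) and the secreted phospholipase Pla2g3 (-2.85 ± 0.47) were likewise among the 12 steepest. Among them too were the carbamoyl phosphate synthetase Cps1 (-5.01 ± 0.58), Nxpe2 (-4.59 ± 0.44), Gstm3 of the glutathione transferases (-4.06 ± 0.59) and Nox1, an NADPH oxidase of epithelium (-3.97 ± 0.83).

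**Figure D2:**
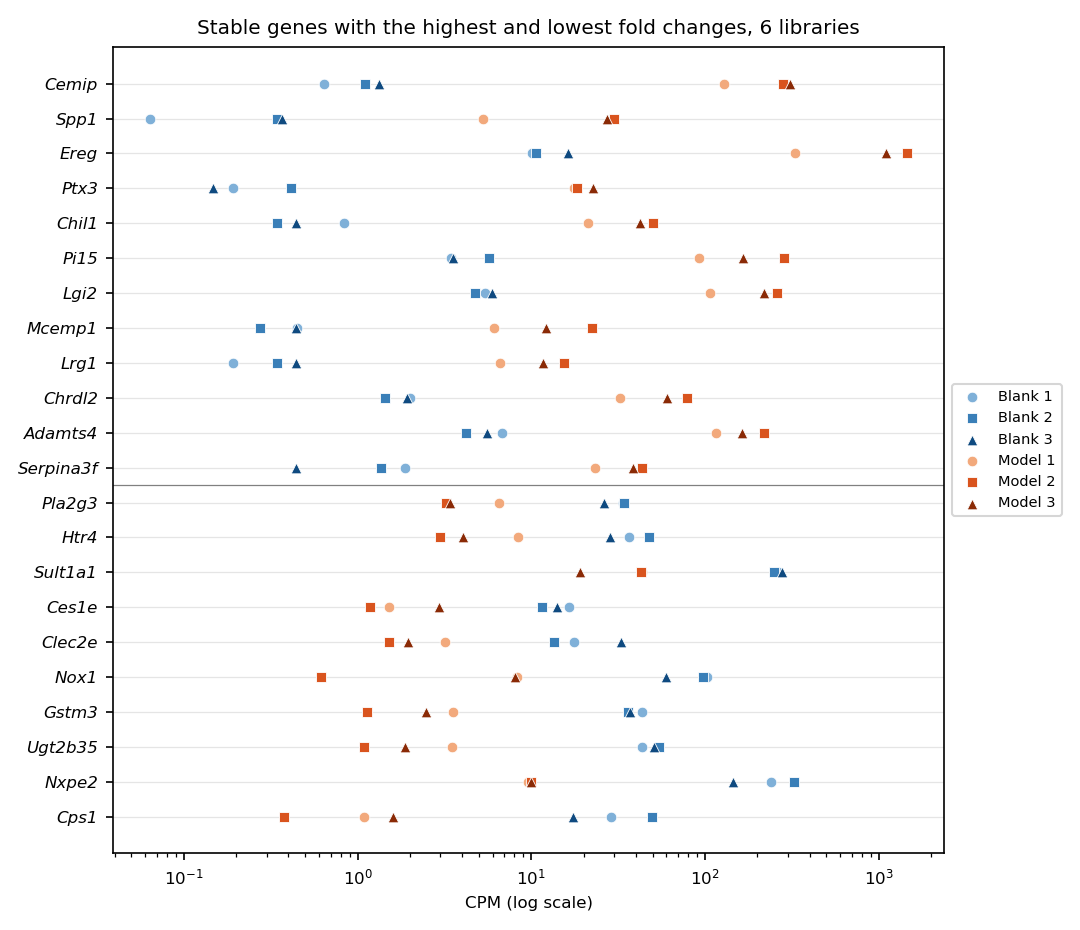
CPM (log scale) of the 12 stable genes at the top of the log2 fold changes and of 10 of the 12 at the bottom, in each Blank library (blue) and each Model library (orange). The 2 groups are apart for each of the 22 genes shown, which the definition of a stable gene requires.

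Among stable genes of the same kind, the 8 largest losses in mean CPM were in genes of lipid synthesis, mitochondria and epithelial regulation. Scd2, a stearoyl-CoA desaturase, had 1406, 1916 and 1589 CPM in Blank 1 to 3 and 455, 557 and 469 CPM in Model 1 to 3 (log2 fold change -1.73 ± 0.23 (SE), adjusted p = 0.000727), with the 3 Model libraries within a narrow range. Fam3d, a secreted protein of gut epithelium, had 1279.6, 1120.2 and 1232 CPM in Blank 1 to 3 and 517, 214 and 252 CPM in Model 1 to 3 (log2 fold change -1.89 ± 0.38 (SE), adjusted p = 0.00493). Maoa, which breaks down serotonin and noradrenaline, had 917, 811 and 799 CPM in Blank 1 to 3 and 382, 177 and 205 CPM in Model 1 to 3 (log2 fold change -1.73 ± 0.38 (SE), adjusted p = 0.00698). Model 1 kept more of Fam3d and Maoa than the other treated libraries. The remaining 5 were the ATP synthase subunits Atp5b (-0.89 ± 0.17) and Atp5a1 (-0.85 ± 0.17), the epithelial transcription factors Hnf4a (-1.40 ± 0.34) and Ehf (-1.58 ± 0.29), and Slc35a3 (-1.39 ± 0.23), which carries UDP-N-acetylglucosamine into the Golgi.

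Gene lists and families are described next by the number of tested members called in each direction, against 24.5% of all genes higher and 19.6% lower, and by the median log2 fold change of the tested members, against -0.03. The members named are the 3 stable ones with the smallest p and the most abundant per length (FPKM). Members introduced with "also", and those that make up a count of 5 or fewer, were chosen after their values were seen. Where leaving out 1 library ended the call of a named gene, moved its fold change by over 1.5 times, or moved a list count above 5 or raised a smaller count by over 1.5 times, that library and the value without it are given in the same paragraph. Where a count of 1 to 5 fell, the members that lost their calls, or the count, are given.

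In the extracellular matrix, genes for making and cutting glycosaminoglycans rose together with the cores that carry them. Of 41 tested genes of hyaluronan and glycosaminoglycan metabolism, 26 were higher and 1 was lower, with a median of 0.88. The lower one was the hyaluronan receptor of dividing cells, Hmmr (-1.87 ± 0.54), and 2 were lower without Model 1. Heparanase, Hpse, which cuts heparan sulfate, had 54.8, 52.1 and 48.7 CPM in Blank 1 to 3 and 111, 125 and 114 CPM in Model 1 to 3 (log2 fold change 1.17 ± 0.10 (SE), adjusted p = 0.000233), and the heparan 6-O-endosulfatase Sulf1 had 18.6, 21.6 and 19.8 CPM in Blank 1 to 3 and 81.6, 141 and 144 CPM in Model 1 to 3 (log2 fold change 2.61 ± 0.23 (SE), adjusted p = 0.000262). Also the hyaluronan synthase Has2 rose (1.96 ± 0.24), alongside the hyaluronan-degrading Cemip. Proteoglycan cores were higher in 18 of 27 (median 1.02), among them versican, Vcan (2.87 ± 0.29), lumican, Lum (2.02 ± 0.23), the syndecan Sdc3 (1.17 ± 0.12) and the most abundant core, decorin, Dcn, and 1 was lower, osteoglycin, Ogn (-0.75 ± 0.25). Hmmr lost its call without Blank 2 (adjusted p = 0.0679), and also without Model 2 or Model 3. Ogn lost its call without Model 2 (adjusted p = 0.123), and also without Blank 1, Blank 2, Blank 3 or Model 3.

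Proteins of elastic fibres and their crosslinkers were called in 1 direction. Of 17 elastic fibre genes 13 were higher and none was lower (median 1.5), led by the elastin-interface proteins Emilin2 (2.87 ± 0.27) and Emilin1 (1.93 ± 0.19) and the latent TGF-beta binding protein Ltbp3 (1.61 ± 0.16), with Efemp1 (0.84 ± 0.14) the most abundant. Also elastin itself, Eln, rose (1.80 ± 0.26). All 5 tested lysyl oxidases, which crosslink collagen and elastin, were higher (median 1.79), for example Loxl1 (1.79 ± 0.27) and Loxl2 (1.94 ± 0.33). ADAMTS proteases and their relatives were higher in 17 of 23 (median 1.66), from Adamts2, which trims procollagen (1.66 ± 0.22), to Adamts1, the most abundant, at 8.87, 11 and 14 CPM in Blank 1 to 3 and 108, 306 and 195 CPM in Model 1 to 3 (log2 fold change 4.17 ± 0.47 (SE), adjusted p = 0.000415). The 1 lower member, Adamts18, had 0.707, 0.686 and 1.40 CPM in Blank 1 to 3 and 0.0726, 0.0475 and 0.067 CPM in Model 1 to 3, which in Model is under the floor of 3 reads, so no fold is given, and without Blank 1 it did not pass the filter on low counts.

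Protease inhibitors moved with the proteases. Serpins were higher in 18 of 27 tested genes (median 2.0) and lower in 2, Serpinb5 (-0.62 ± 0.18) and Serpina9 (-1.93 ± 0.57). The most abundant was Serpina3n, an inhibitor of serine proteases such as leukocyte elastase and cathepsin G, at 27.8, 27.7 and 25.8 CPM in Blank 1 to 3 and 736, 2420.2 and 1055 CPM in Model 1 to 3 (log2 fold change 5.69 ± 0.52 (SE), adjusted p = 0.000269). Also the other 5 tested genes of the Serpina3 cluster on chromosome 12 were all higher: Serpina3m (7.71 ± 1.08), Serpina3i (5.87 ± 0.70), Serpina3f, Serpina3g (3.32 ± 0.42) and Serpina3c (3.0 ± 0.48). These are near-identical copies, and reads that fit several of them may have been split or dropped, so the value of each copy is uncertain. Serping1, the inhibitor of complement C1, had 106, 101.3 and 97.6 CPM in Blank 1 to 3 and 288, 535 and 398 CPM in Model 1 to 3 (log2 fold change 2.0 ± 0.23 (SE), adjusted p = 0.000428), and the granzyme B inhibitor Serpinb9 rose by less (1.41 ± 0.18). Lysosomal cathepsins and cystatins were higher in 14 of 19 (median 0.73): the asparagine endopeptidase Lgmn had 119, 83.8 and 86.5 CPM in Blank 1 to 3 and 356, 563 and 485 CPM in Model 1 to 3 (log2 fold change 2.28 ± 0.20 (SE), adjusted p = 0.000262), with Ctsk (2.40 ± 0.25), Ctsb (1.36 ± 0.15) and the most abundant, Ctss (0.79 ± 0.12). The 1 lower member was Ctse (-1.67 ± 0.44). Serpina3n changed on the log2 scale by 5.05 without Model 2. Serpina3m changed on the log2 scale by 8.43 without Blank 3 and 6.60 without Model 2. Serpina3i changed on the log2 scale by 7.41 without Blank 2. Serpinb5 lost its call without Model 3 (adjusted p = 0.0771), and also without Blank 1, Blank 3 or Model 2. Serpina9 lost its call without Model 3 (adjusted p = 0.0879), and also without Blank 1, Blank 2 or Model 2. Ctse lost its call without Model 3 (adjusted p = 0.0635), and also without Blank 1 or Model 2.

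**Figure D3:**
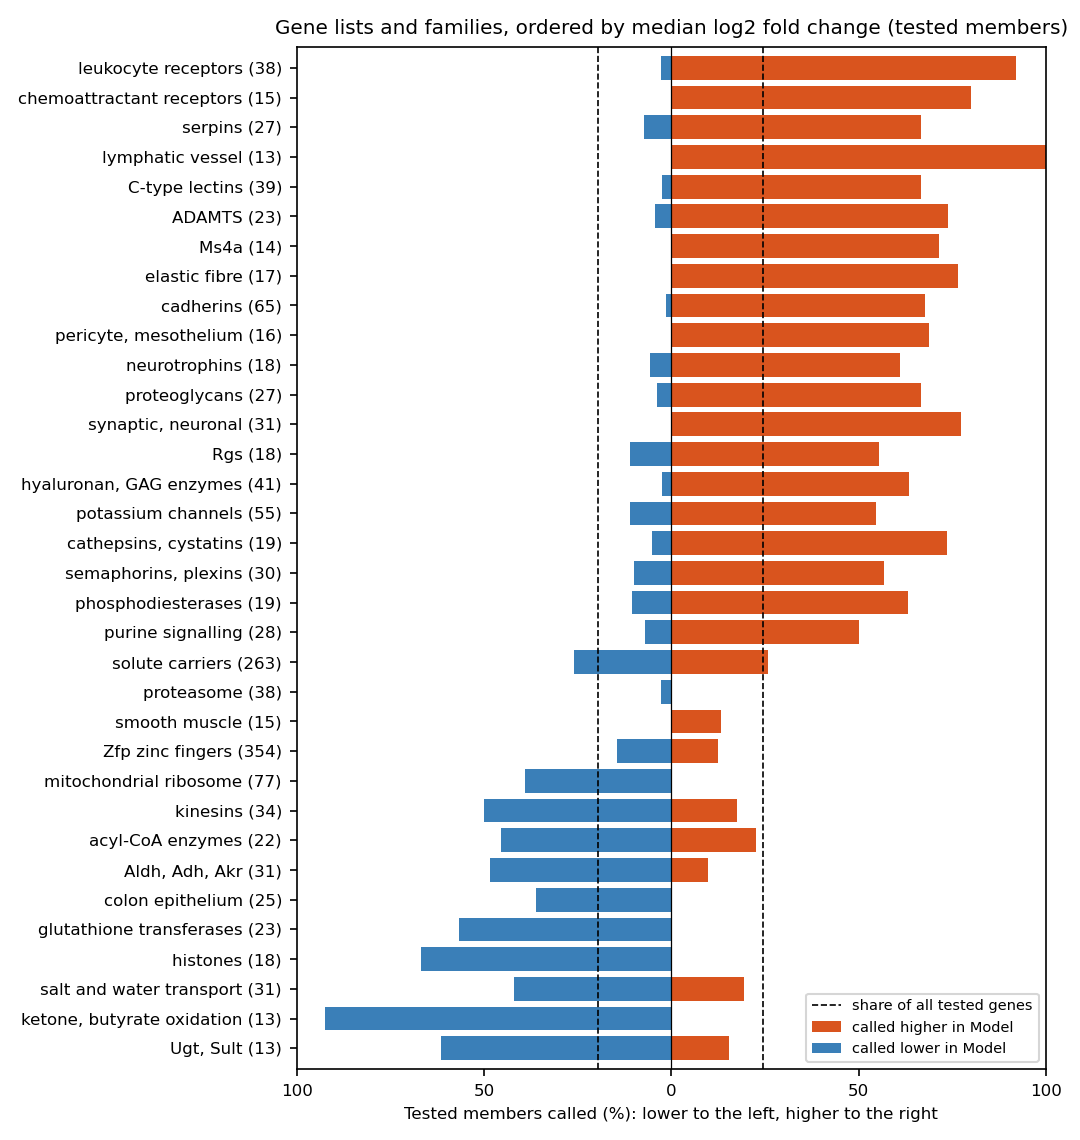
Share of tested members called higher (orange, to the right) or lower (blue, to the left) in Model for 34 lists and families, ordered by median log2 fold change, with the number of tested members in brackets. Dashed lines mark the shares over all tested genes, 24.5% higher and 19.6% lower.

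Receptors of myeloid cells beyond the cytokine receptors were called in high proportion. Of 38 tested genes on a list of paired and single immune receptors and their adaptors, 35 were higher (median 2.56) and 1 was lower, Cd300e (-1.46 ± 0.32). Most are of the Trem, Cd300, Siglec, Sirp, Lilr and Pir kinds. The list further holds Pilr and Cd200r receptors and the gene of pyrin, which is neither receptor nor adaptor and is among the 35. The adaptor Tyrobp, the most abundant, had 11.1, 6.86 and 7.75 CPM in Blank 1 to 3 and 39.4, 66.9 and 66.0 CPM in Model 1 to 3 (log2 fold change 2.75 ± 0.28 (SE), adjusted p = 0.000334). The inhibitory receptors Sirpa (2.04 ± 0.17), which reads CD47, and Pirb (3.04 ± 0.31), which reads MHC class I, rose together with the activating ones, and also the neutrophil and monocyte receptor Trem1 was at 0.257, 0.206 and 0 CPM in Blank 1 to 3 and 7.41, 47.9 and 15.5 CPM in Model 1 to 3 (log2 fold change 7.15 ± 1.15 (SE), adjusted p = 0.00173). Receptors for formyl peptides, leukotrienes and complement fragments were higher in 12 of 15 (median 2.34), for instance the C5a receptor C5ar1 (2.67 ± 0.24), the chemerin receptor Cmklr1 (2.34 ± 0.21) and the platelet-activating factor receptor Ptafr (2.29 ± 0.23). The Ms4a tetraspan family was higher in 10 of 14 and lower in none (median 1.53), with Ms4a6d (3.64 ± 0.34), Ms4a7 (1.40 ± 0.13) and Ms4a6c (2.67 ± 0.29). The most abundant, Ms4a8a, was not called (0.01 ± 0.27, adjusted p = 0.97). Trem1 changed on the log2 scale by 6.09 without Model 2.

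C-type lectins and their NK-type relatives were higher in 26 of 39 (median 1.77), though the count was 17 without Blank 2 and 17 without Model 3. The collagen receptor Mrc2 (2.30 ± 0.17), the fungal sensor Clec4n (2.40 ± 0.20) and Clec4a3 (2.50 ± 0.22) were stable. The most abundant, the epithelial Clec2h, was not called (-0.34 ± 0.34, adjusted p = 0.442), and the 1 lower member was the Clec2e described above.

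Vessel genes rose too. All 13 lymphatic vessel markers were higher (median 1.78). Among them Pdpn is also counted with the fibroblast markers below, so the list is not particular to lymphatic vessels. The chemokine Ccl21a, the most abundant, had 42.5, 30.3 and 45.2 CPM in Blank 1 to 3 and 152, 159 and 186 CPM in Model 1 to 3 (log2 fold change 2.08 ± 0.16 (SE), adjusted p = 0.000176), the hyaluronan receptor of lymphatic endothelium, Lyve1, had 30.3, 31.6 and 33.1 CPM in Blank 1 to 3 and 104, 180.4 and 115 CPM in Model 1 to 3 (log2 fold change 2.07 ± 0.20 (SE), adjusted p = 0.000277), and the VEGF receptor Flt4 had 12, 9.88 and 15.1 CPM in Blank 1 to 3 and 36.9, 54.4 and 49.9 CPM in Model 1 to 3 (log2 fold change 1.94 ± 0.20 (SE), adjusted p = 0.000329). Also the lymphatic master regulator Prox1 was higher, by less (1.28 ± 0.24). The gene Ccl21a has near-identical copies, so its own share of the reads is uncertain. Pericyte and mesothelial markers were higher in 11 of 16 (median 1.24): the potassium channel subunit Abcc9 (2.85 ± 0.27), Mcam (1.39 ± 0.17) and Pdgfrb (1.52 ± 0.19). The most abundant gene of that list, Krt19, is also an epithelial keratin and was not called (-0.74 ± 0.33, adjusted p = 0.0937).

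Connexins moved in both directions. Of 12 tested, 5 alpha and gamma connexins were higher, a subgroup that includes those of vessels and muscle: Gja1, the most abundant (2.51 ± 0.29), Gja4 (1.44 ± 0.25), Gja5 (1.77 ± 0.33), Gjc1 (1.19 ± 0.21) and Gjc3 (1.08 ± 0.32). Lower members, 3 in all, included the epithelial beta connexins Gjb1 (-1.75 ± 0.36) and Gjb5 (-1.73 ± 0.46). Gja1 stood at 54.3 to 59.7 CPM in Blank and 197 to 448 in Model, and Gjb1 had 49.0, 46.8 and 39.8 CPM in Blank 1 to 3 and 18.5, 9.12 and 12.9 CPM in Model 1 to 3. Gjc3 lost its call without Model 2 (adjusted p = 0.099), and also without Blank 1, Blank 2 or Blank 3. Gjb5 lost its call without Blank 2 (adjusted p = 0.0593), and also without Model 3.

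Neural genes of the gut wall were mostly higher. Of 31 genes of synaptic vesicles and the neuronal cytoskeleton, 24 were higher and none was lower (median 1.01). Snap25, which fuses vesicles with the membrane, had 12.7, 14.3 and 20.1 CPM in Blank 1 to 3 and 32.8, 39.3 and 32.4 CPM in Model 1 to 3 (log2 fold change 1.15 ± 0.19 (SE), adjusted p = 0.00214), with the vesicle protein Syt11 (1.29 ± 0.15) and the secretory granule chaperone Scg5 (1.33 ± 0.20) alongside. Chgb, the most abundant and shared with endocrine cells, was not called (0.53 ± 0.21, adjusted p = 0.0667). Neurotrophins, the GDNF family and their receptors were higher in 11 of 18 (median 1.21), including the receptors Ret (1.45 ± 0.26) and Lifr (1.62 ± 0.23). The 1 lower gene was their sorting receptor Sort1 (-1.01 ± 0.35), which was also the most abundant. The axon guidance family of semaphorins, plexins and neuropilins was higher in 17 of 30 (median 0.73), such as the endothelial Plxnd1 (1.74 ± 0.19) and Nrp1 (1.38 ± 0.16), and lower in 3: Sema5a (-1.10 ± 0.11), Sema4g (-1.58 ± 0.53) and Sema3b (-0.86 ± 0.24). Its most abundant member, Plxnb2, was not called (-0.20 ± 0.16, adjusted p = 0.326). Sort1 lost its call without Model 3 (adjusted p = 0.134), and also without Blank 1, Blank 2, Blank 3 or Model 2. Sema4g lost its call without Model 3 (adjusted p = 0.126), and also without Blank 1, Blank 2, Blank 3 or Model 2. Sema3b lost its call without Model 2 (adjusted p = 0.0666), and also without Blank 3 or Model 3.

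Cadherins and protocadherins were higher in 44 of 65 (median 1.34). The endothelial Cdh5 had 28.2, 24.4 and 24.8 CPM in Blank 1 to 3 and 63.8, 86.3 and 91.2 CPM in Model 1 to 3 (log2 fold change 1.64 ± 0.16 (SE), adjusted p = 0.000304), and the mesenchymal Cdh11 (1.82 ± 0.20) and Pcdh7 (1.45 ± 0.21) rose with it. E-cadherin, Cdh1, the most abundant, was not called (-0.72 ± 0.29, adjusted p = 0.0716). Of the 44 higher genes, 30 belong to the clustered protocadherin families, which share exons and sequence and were low (median Model mean 3.02 CPM), so their separate values are uncertain. The 1 lower gene was one of these, Pcdhgc4 (-1.38 ± 0.31), and 4 genes were lower without Model 1 and 2 without Blank 1.

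Ion channels moved in both directions. Among 55 tested potassium channel genes 30 were higher and 6 lower, the latter 10 without Model 1 (median 0.84). The channel regulator Kcne4 had 4.24, 4.32 and 5.61 CPM in Blank 1 to 3 and 43.3, 115 and 62.9 CPM in Model 1 to 3 (log2 fold change 3.97 ± 0.37 (SE), adjusted p = 0.000269) and the small-conductance channel Kcnn3 rose as well (1.80 ± 0.18). The epithelial pair that recycles potassium across the basolateral membrane during chloride secretion fell: Kcnq1 had 50, 49.7 and 46.4 CPM in Blank 1 to 3 and 14.2, 5.74 and 12.8 CPM in Model 1 to 3 (log2 fold change -2.17 ± 0.30 (SE), adjusted p = 0.000872), and its partner Kcne3, the most abundant of the list, had 209, 224 and 202 CPM in Blank 1 to 3 and 70.9, 22.5 and 38.9 CPM in Model 1 to 3 (log2 fold change -2.27 ± 0.34 (SE), adjusted p = 0.00135). Of 22 TRP and Piezo channels 11 were higher, with the irritant sensor Trpa1 (2.92 ± 0.31) and the polycystins Pkd2 (1.10 ± 0.14) and Pkd1 (0.67 ± 0.11). The 5 lower ones were the magnesium channel Trpm6, the most abundant (-2.47 ± 0.66), the calcium channel Trpv6 (-3.90 ± 1.18, with groups that overlapped), Trpm5 (-1.31 ± 0.44), Trpm4 (-1.01 ± 0.30) and Mcoln2 (-0.65 ± 0.14). Trpm6 changed on the log2 scale by -3.13 without Model 1, -2.24 without Model 2 (adjusted p = 0.0587) and -2.20 without Model 3 (adjusted p = 0.0619). Trpv6 lost its call without Blank 1 (adjusted p = 0.0888), and also without Blank 2, Model 1 or Model 2. Trpm5 lost its call without Model 3 (adjusted p = 0.117), and also without Blank 1, Blank 2, Blank 3 or Model 2. Trpm4 lost its call without Model 3 (adjusted p = 0.0922), and also without Blank 1, Blank 3 or Model 2.

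Enzymes that break down cyclic nucleotides were higher in 12 of 19 (median 0.70): Pde1a (2.58 ± 0.18), the leukocyte cAMP phosphodiesterase Pde4b (2.30 ± 0.24) and the most abundant, the cGMP phosphodiesterase Pde9a (1.64 ± 0.22), while Pde7a (-1.31 ± 0.23) and Pde8b (-1.36 ± 0.19) were lower. Regulators of G-protein signalling were higher in 10 of 18 (median 0.94), for example Rgs4 (1.89 ± 0.22), Rgs2 (1.72 ± 0.22), Rgs16 (2.30 ± 0.29) and the abundant pericyte gene Rgs5 (1.0 ± 0.19), and lower for Rgs13 (-1.45 ± 0.48) and Rgs17 (-1.01 ± 0.29). Orphan and adhesion receptors of the Gpr and Adgr names were higher in 36 of 76 and lower in 4 (median 0.90), with Gpr146 (2.1 ± 0.20), Adgra2 (1.66 ± 0.17) and the macrophage receptor Adgre1 (1.32 ± 0.14). The lower ones were the Golgi protein Gpr89 (-0.73 ± 0.21), Gpr108 (-0.52 ± 0.14), Adgra3 (-0.66 ± 0.21) and Adgrb1 (-0.75 ± 0.26), a count that was 8 without Model 1 and 0 without Model 2 or Model 3. The most abundant of these receptors, Adgrg7, was not called (-0.50 ± 0.30, adjusted p = 0.205). Receptors and enzymes of extracellular ATP and adenosine were higher in 14 of 28 (median 0.40): the ectonucleotidase Entpd1, CD39, had 39.4, 42.4 and 37.3 CPM in Blank 1 to 3 and 119, 174 and 164 CPM in Model 1 to 3 (log2 fold change 1.94 ± 0.20 (SE), adjusted p = 0.000342), and the ADP receptors P2ry12 (1.36 ± 0.19) and P2ry13 (1.81 ± 0.23) rose. Adenosine kinase, Adk (-0.75 ± 0.15), and the epithelial Entpd5 (-1.48 ± 0.35) were the 2 lower members, or 4 without Model 1, and the most abundant, Entpd8, was not called (-0.71 ± 0.33, adjusted p = 0.112). Rgs13 lost its call without Model 3 (adjusted p = 0.11), and also without Blank 1, Blank 2, Blank 3 or Model 2. Rgs17 lost its call without Blank 3 (adjusted p = 0.0758), and also without Model 2 or Model 3. Gpr89 lost its call without Model 3 (adjusted p = 0.0786), and also without Blank 2, Blank 3 or Model 2. Gpr108 lost its call without Model 2 (adjusted p = 0.0571), and also without Blank 1 or Model 3. Adgra3 lost its call without Model 3 (adjusted p = 0.101), and also without Blank 1, Blank 2, Blank 3 or Model 2. Adgrb1 lost its call without Model 3 (adjusted p = 0.147), and also without Blank 1, Blank 2, Blank 3 or Model 2.

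Growth factor families were split between members. Of 10 tested fibroblast growth factors 6 were higher and none was lower (median 1.79). Fgf10, a stromal signal to epithelium, had 16.9, 13.2 and 14.8 CPM in Blank 1 to 3 and 47.3, 72.0 and 77.8 CPM in Model 1 to 3 (log2 fold change 2.14 ± 0.22 (SE), adjusted p = 0.000329), Fgf2 rose by 2.71 ± 0.31 and the most abundant, the keratinocyte growth factor Fgf7, by 2.63 ± 0.42. Igfbp5, Igfbp4 (3.34 ± 0.34) and Igfbp7 (2.02 ± 0.23) were the 3 higher of 6 tested insulin-like growth factor binding proteins, and Igfbp2 was the 1 lower (-1.53 ± 0.49). The Hedgehog list was called in both directions at shares near those of all genes, 4 lower and 4 higher of 16 (median 0.05). The ligand Ihh, the most abundant, had 61.7, 51.5 and 53.3 CPM in Blank 1 to 3 and 28.0, 7.55 and 16.6 CPM in Model 1 to 3 (log2 fold change -1.68 ± 0.49 (SE), adjusted p = 0.0233), and Hhip (-2.03 ± 0.35), Ptch1 (-0.59 ± 0.15) and Gli1 (-2.05 ± 0.23) were the other called falls. The higher members were Gli2 (1.5 ± 0.21), Gli3 (1.38 ± 0.20), Disp2 (0.82 ± 0.21) and Sufu (0.55 ± 0.15), a count that was 2 without Blank 2 and 2 without Model 2. Ephrins and their receptors were lower in 7 of 19 (4 without Blank 1 and 4 without Model 3), with the crypt receptor Ephb3 (-1.69 ± 0.18) and Ephb4 (-0.76 ± 0.10) stable, and higher for Efna5 (1.90 ± 0.24), Epha3 (2.22 ± 0.33) and Epha5 (1.70 ± 0.38). The most abundant ephrin, Efna1, was not called (-0.59 ± 0.23, adjusted p = 0.0623). Fgf7 changed on the log2 scale by 2.04 without Model 2. Ihh changed on the log2 scale by -1.59 without Blank 1 (adjusted p = 0.0617), -1.73 without Blank 2 (adjusted p = 0.051), -1.31 without Model 2 (adjusted p = 0.0548) and -1.65 without Model 3 (adjusted p = 0.0736). Igfbp2 lost its call without Blank 1 (adjusted p = 0.103), and also without Blank 2, Model 1, Model 2 or Model 3. Disp2 lost its call without Model 2 (adjusted p = 0.0533), and also without Blank 2. Sufu lost its call without Model 2 (adjusted p = 0.0636), and also without Blank 2 or Model 3.

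**Figure D4:**
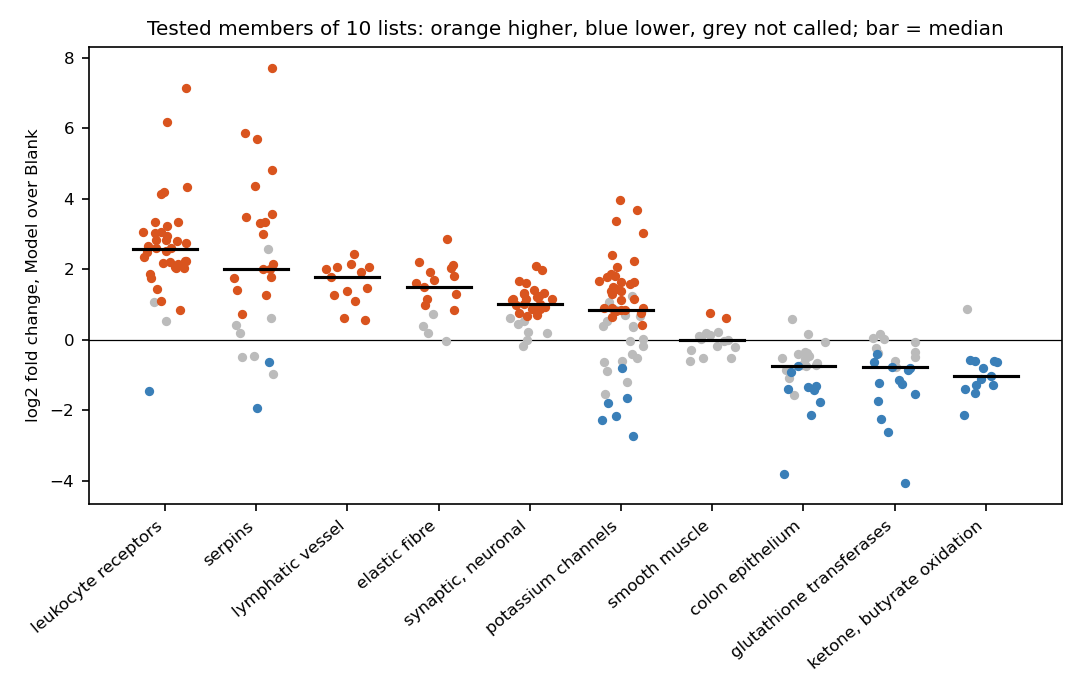
Log2 fold change of each tested member of 10 lists (points, coloured by call) with the median as a bar. Every point of the lymphatic list lies above 0, and 12 of the 13 points of the ketone body and butyrate list lie below it.

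Among epithelial functions, the oxidation of butyrate and ketone bodies was lower in 12 of 13 genes and higher in none (median -1.04). The count was 7 without Model 2 and 6 without Model 3. Acat1, the acetoacetyl-CoA thiolase, had 158, 186 and 185 CPM in Blank 1 to 3 and 104, 69.8 and 83.3 CPM in Model 1 to 3 (log2 fold change -1.04 ± 0.16 (SE), adjusted p = 0.00153), and the enoyl-CoA hydratase Echs1 (-0.81 ± 0.15) was a stable fall. The most abundant, the monocarboxylate carrier Slc16a1 of butyrate uptake, had 493, 488 and 450.5 CPM in Blank 1 to 3 and 276, 207 and 184 CPM in Model 1 to 3 (log2 fold change -1.10 ± 0.28 (SE), adjusted p = 0.0135). Slc16a1 changed on the log2 scale by -0.97 without Model 3 (adjusted p = 0.0531).

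Enzymes that conjugate or hydrolyse foreign compounds were called lower more often than higher. Glutathione transferases were lower in 13 of 23, or 8 without Model 3, and higher in none (median -0.78). Gstm1 had 259, 219.9 and 223 CPM in Blank 1 to 3 and 82.6, 77.0 and 82.7 CPM in Model 1 to 3 (log2 fold change -1.53 ± 0.14 (SE), adjusted p = 0.000262) and Gsta3 had 45.3, 35 and 32.5 CPM in Blank 1 to 3 and 10.4, 4.37 and 9.05 CPM in Model 1 to 3 (log2 fold change -2.26 ± 0.31 (SE), adjusted p = 0.000826), while the most abundant, Mgst3, was not called (-0.78 ± 0.35, adjusted p = 0.101). Members of the Gstm cluster resemble each other closely, and the split of reads among them is uncertain. Glucuronosyltransferases and sulfotransferases were lower in 8 of 13 (5 without Model 2 and 5 without Model 3, median -1.77), with Ugt2b35 and Sult1a1 described above, and higher for Sult5a1 (3.0 ± 0.75) and Sult4a1 (1.26 ± 0.27). Carboxylesterases and related hydrolases were lower in 6 of 15, or 10 without Model 1, with Ces2g (-1.51 ± 0.26) beside Ces1e, and higher for Ces1d (1.13 ± 0.17) and Ces1g (2.03 ± 0.59). The most abundant, Ces2c, was not called (-0.93 ± 0.47, adjusted p = 0.135). Ces1g lost its call without Model 2 (adjusted p = 0.085), and also without Blank 2 or Blank 3.

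The alcohol and aldehyde dehydrogenases and aldo-keto reductases held both directions. 15 of 31 were lower (9 without Model 2 and 9 without Model 3, median -0.57). The mitochondrial Aldh1b1 had 216, 202 and 179.8 CPM in Blank 1 to 3 and 68.5, 29.1 and 36.6 CPM in Model 1 to 3 (log2 fold change -2.16 ± 0.34 (SE), adjusted p = 0.0015), Akr1c12 fell by less (-1.22 ± 0.23), and the most abundant, the alcohol dehydrogenase Adh1, had 518, 566 and 416 CPM in Blank 1 to 3 and 178, 105 and 70.7 CPM in Model 1 to 3 (log2 fold change -2.08 ± 0.55 (SE), adjusted p = 0.0161). The 3 higher members were the retinaldehyde dehydrogenases Aldh1a3, at 9.13, 11.9 and 10.5 CPM in Blank 1 to 3 and 68.8, 124 and 81.5 CPM in Model 1 to 3 (log2 fold change 3.12 ± 0.22 (SE), adjusted p = 0.000162), and Aldh1a2 (1.97 ± 0.40), with Aldh3b1 (1.10 ± 0.23). Adh1 changed on the log2 scale by -2.01 without Model 2 (adjusted p = 0.0552) and -1.81 without Model 3 (adjusted p = 0.0606).

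Enzymes that activate or release fatty acids were lower in 10 of 22 and higher in 5 (median -0.51). Closely related synthetases moved in opposite directions: Acsl3, the most abundant, had 288, 369.6 and 372 CPM in Blank 1 to 3 and 106, 72.4 and 74.5 CPM in Model 1 to 3 (log2 fold change -2.03 ± 0.34 (SE), adjusted p = 0.00212), and Acsl4, which prefers arachidonate, had 55.1, 59.1 and 57.8 CPM in Blank 1 to 3 and 145, 365 and 260.0 CPM in Model 1 to 3 (log2 fold change 2.16 ± 0.31 (SE), adjusted p = 0.00108). Acot7 (-0.85 ± 0.12) and Acsf2 (-1.54 ± 0.23) fell, and the other higher members were Acss3 (1.73 ± 0.33), Acsbg1 (1.51 ± 0.38), Acsl6 (1.17 ± 0.21) and Acot9 (0.60 ± 0.13). Phospholipases and lysophospholipid genes were higher in 9 of 25 (median 0.00), with the platelet-activating factor hydrolase Pla2g7 (2.39 ± 0.30), the lysosomal Pla2g15 (1.32 ± 0.10) and Plpp3 (1.67 ± 0.16). The 4 lower members were Pla2g3, Pla2g4c (-2.78 ± 0.85), Lpar5 (-0.90 ± 0.32) and Lpcat3 (-0.62 ± 0.14), a count that was 8 without Model 1, and the most abundant, Plpp2, was not called (-0.29 ± 0.18, adjusted p = 0.221). In the sphingolipid list, 6 of 27 were higher and 5 lower, the latter 9 without Model 1. The sphingosine kinase Sphk1 had 3.54, 2.74 and 2.14 CPM in Blank 1 to 3 and 24.8, 53.4 and 31.2 CPM in Model 1 to 3 (log2 fold change 3.69 ± 0.37 (SE), adjusted p = 0.000312) and the ceramide synthase Cers2 rose (0.63 ± 0.11), while Cers6 (-1.10 ± 0.14), Acer1 (-3.19 ± 0.67), Gal3st1 (-1.77 ± 0.47), Sgpp2 (-1.05 ± 0.24) and the second sphingosine kinase Sphk2 (-0.84 ± 0.20) fell. The most abundant, Smpdl3a, was not called (-0.07 ± 0.18, adjusted p = 0.788). Pla2g4c lost its call without Blank 2 (adjusted p = 0.11), and also without Model 1, Model 2 or Model 3. Lpar5 lost its call without Blank 1 (adjusted p = 0.153), and also without Blank 2, Blank 3, Model 2 or Model 3. Gal3st1 lost its call without Model 2 (adjusted p = 0.0578), and also without Model 3.

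One-carbon and serine metabolism was lower in 8 of 20 genes and higher in 4, though the median was above 0 (0.15). The cytosolic serine hydroxymethyltransferase Shmt1 had 44.3, 55.7 and 48.7 CPM in Blank 1 to 3 and 27.7, 12 and 21.1 CPM in Model 1 to 3 (log2 fold change -1.30 ± 0.27 (SE), adjusted p = 0.0056), and the glycine cleavage gene Amt (-1.09 ± 0.20) and the glutamine carrier Slc1a5, the most abundant (-0.62 ± 0.09), fell with it. The higher genes included Aldh1l2 (1.80 ± 0.44), methionine synthase Mtr (0.95 ± 0.21) and Sardh (0.80 ± 0.25, with groups that overlapped). Polyamine genes were higher in 7 of 16, with spermine oxidase Smox (1.11 ± 0.16), Slc3a2 (0.92 ± 0.14) and the most abundant, the spermidine acetyltransferase Sat1 (0.51 ± 0.11). That count was 3 without Blank 1 or without Model 2 and 4 without Blank 2, Blank 3 or Model 3. The 1 lower gene was the diamine oxidase Aoc1 (-1.90 ± 0.60). Sardh lost its call without Model 3 (adjusted p = 0.109), and also without Blank 1, Blank 2 or Model 2. Aoc1 lost its call without Model 3 (adjusted p = 0.103), and also without Blank 1, Blank 2 or Model 2.

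Salt and water transport was lower in 13 of 31 genes, or 8 without Model 3, and higher in 6 (median -0.93). The chloride channel Cftr had 279, 292 and 286 CPM in Blank 1 to 3 and 73.8, 28.5 and 43.1 CPM in Model 1 to 3 (log2 fold change -2.56 ± 0.34 (SE), adjusted p = 0.000722), and the cotransporter Slc12a2, which loads chloride into secreting cells, had 637, 714 and 665 CPM in Blank 1 to 3 and 316, 209.8 and 281 CPM in Model 1 to 3 (log2 fold change -1.32 ± 0.17 (SE), adjusted p = 0.000727). Clca1, a secreted goblet cell protein and the most abundant of the list, ranged too widely to be called, at 5347, 14538 and 6816 CPM in Blank 1 to 3 and 7481, 2033 and 5771 CPM in Model 1 to 3 (adjusted p = 0.246). Its relative Clca4b was higher at 61.4, 9.95 and 7.38 CPM in Blank 1 to 3 and 941, 1938 and 902 CPM in Model 1 to 3 (log2 fold change 5.58 ± 1.01 (SE), adjusted p = 0.00295). Peptidases of the brush border and related membrane peptidases were higher in 6 of 15, though the median was below 0 (-0.24). The higher ones included Ggt5 (2.45 ± 0.23) and Enpep (1.62 ± 0.19), which are also vascular genes, and the 4 lower ones included Dpp4 (-1.32 ± 0.18), Naaladl1 (-2.41 ± 0.35) and Mep1a (-1.71 ± 0.57). The most abundant peptidase, Dpep1, was not called (-1.03 ± 0.44, adjusted p = 0.0835). Clca4b changed on the log2 scale by 7.19 without Blank 1. Mep1a lost its call without Model 3 (adjusted p = 0.117), and also without Blank 1, Blank 2, Blank 3 or Model 2.

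Over all 263 tested solute carriers the call was even, with 68 higher and 68 lower. The lower count fell to 42, 44, 40 and 39 without Blank 1, Blank 3, Model 2 and Model 3. Slc10a6, a carrier of sulfated steroids, had 0.45, 0.549 and 1.03 CPM in Blank 1 to 3 and 15.9, 18 and 13.6 CPM in Model 1 to 3 (log2 fold change 4.55 ± 0.40 (SE), adjusted p = 0.000262). Slc43a2, a carrier of large neutral amino acids, rose by 1.85 ± 0.21. The mitochondrial ADP/ATP carriers moved apart: Slc25a5, the most abundant solute carrier, had 949, 978 and 997 CPM in Blank 1 to 3 and 771, 469 and 471 CPM in Model 1 to 3 (log2 fold change -0.77 ± 0.23 (SE), adjusted p = 0.0244), and Slc25a4, the isoform of muscle and heart, had 50.7, 53.8 and 59.8 CPM in Blank 1 to 3 and 102, 142 and 108 CPM in Model 1 to 3 (log2 fold change 1.10 ± 0.16 (SE), adjusted p = 0.00105). Slc25a5 changed on the log2 scale by -0.78 without Blank 1 (adjusted p = 0.056), -0.76 without Blank 2 (adjusted p = 0.0633), -0.75 without Blank 3 (adjusted p = 0.0609), -0.65 without Model 2 (adjusted p = 0.0835) and -0.65 without Model 3 (adjusted p = 0.0836).

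Among regulators in the nucleus, nuclear receptors were higher in 10 and lower in 14 of 40. The higher count was 6 without Model 2 and 5 without Model 3, and the lower count 8, 7 and 9 without Blank 1, Blank 2 and Blank 3 and 5 without Model 2 or Model 3. The immediate early receptor Nr4a2 (2.56 ± 0.38) and the vascular Nr2f2 (0.60 ± 0.14) rose, and Pparg fell (-0.93 ± 0.17), as did Hnf4a, the most abundant. Hox genes, which record position along the gut, held 8 higher and 8 lower of 28. The stable ones were Hoxa11, which rose (0.89 ± 0.19), and Hoxa7 (-1.12 ± 0.23), Hoxa9 (-1.17 ± 0.20) and Hoxb9 (-1.35 ± 0.33), which fell. The most abundant, the distal colon gene Hoxb13, had 244, 237 and 178 CPM in Blank 1 to 3 and 107, 60.9 and 52.1 CPM in Model 1 to 3 (log2 fold change -1.58 ± 0.42 (SE), adjusted p = 0.0155). The higher Hox count was 5 without Blank 1 and 4 without Blank 2 or Model 2, and the lower 4 without Model 3. Hoxb13 changed on the log2 scale by -1.47 without Model 2 (adjusted p = 0.0562) and -1.38 without Model 3 (adjusted p = 0.0612).

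Zinc finger genes with Zfp names were under the background in both directions, with 44 of 354 higher, or 28 without Model 3, and 51 lower, or 28, 27, 21 and 22 without Blank 1, Blank 2, Model 2 and Model 3. Of 38 tested proteasome subunits 1 was called lower (Psme4, -0.29 ± 0.09), or 2 without Model 1, and none was higher, or 2 without Blank 1. Polymerase, Mcm and Orc genes of DNA replication were lower for 2 of 28, Prim1 (-0.98 ± 0.25) and Pold2 (-0.66 ± 0.23), with a median of -0.30. Histone genes were lower in 12 of 18 and higher in none (median -0.91), counts that were 5, 6, 5 and 4 without Blank 2, Blank 3, Model 2 and Model 3. The linker histone H1f0 (-1.63 ± 0.18), H2bc21 (-1.65 ± 0.17) and H2az2 (-1.0 ± 0.16) were stable, and the most abundant, H3f3b, fell (-0.36 ± 0.11). Kinesins were higher in 6 of 34 and lower in 17, the latter 11, 7, 8 and 6 without Blank 1, Blank 2, Blank 3 and Model 2. Kif21a (-0.99 ± 0.17) and Kif16b (-0.73 ± 0.14) were stable, and the most abundant, Kif5b, was not called (-0.12 ± 0.11, adjusted p = 0.428). Mitochondrial ribosomal proteins were lower in 30 of 77 and higher in none (median -0.31), or 19, 16, 17 and 16 without Blank 2, Blank 3, Model 2 and Model 3. H3f3b changed on the log2 scale by -0.31 without Blank 1 (adjusted p = 0.111), -0.36 without Blank 2 (adjusted p = 0.0831), -0.40 without Blank 3 (adjusted p = 0.0587), -0.35 without Model 2 (adjusted p = 0.0789) and -0.34 without Model 3 (adjusted p = 0.0782). Psme4 lost its call without Model 3 (adjusted p = 0.0994), and also without Blank 1, Blank 2, Blank 3 or Model 2. Prim1 lost its call without Model 2 (adjusted p = 0.0532). Pold2 lost its call without Blank 3 (adjusted p = 0.148), and also without Blank 1, Blank 2, Model 1, Model 2 or Model 3.

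Pathway names written in the deposited table gave 318 sets of 10 to 300 tested genes, which overlap in members. The largest shares called higher were in "Malaria" (38 of 50), "Complement and coagulation cascades" (45 of 63), "Viral protein interaction with cytokine and cytokine receptor" (51 of 73), "African trypanosomiasis" (22 of 32), "Glycosaminoglycan biosynthesis - chondroitin sulfate / dermatan sulfate" (14 of 21), "Cytokine-cytokine receptor interaction" (132 of 204), "Leishmaniasis" (42 of 68), "Inflammatory bowel disease" (32 of 53), "ECM-receptor interaction" (48 of 80) and "Osteoclast differentiation" (68 of 118). The chondroitin and dermatan sulfate set is the 1 biosynthetic pathway among them. For "Inflammatory bowel disease" the count was 19 without Blank 2 and 21 without Model 2 or Model 3.

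The largest shares called lower were in "Citrate cycle (TCA cycle)" (25 of 30), "Butanoate metabolism" (17 of 21), "Sulfur metabolism" (8 of 11), "Steroid biosynthesis" (13 of 18), "Valine, leucine and isoleucine degradation" (33 of 47), "Fatty acid elongation" (16 of 24), "Glyoxylate and dicarboxylate metabolism" (19 of 29), "Ascorbate and aldarate metabolism" (9 of 14), "Selenocompound metabolism" (10 of 17) and "Propanoate metabolism" (17 of 29). All 10 are metabolic. "Sulfur metabolism" was 5 without Blank 3, Model 2 or Model 3. "Fatty acid elongation" was 9, 8, 10, 8 and 7 without Blank 1, Blank 2, Blank 3, Model 2 and Model 3. "Glyoxylate and dicarboxylate metabolism" was 12 without Model 3, and "Selenocompound metabolism" was 6 without Blank 1 or Blank 3 and 5 without Model 2.

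Markers of the cell types a colon sample can hold moved with these results, and their part in them was not tested. Of 25 colon epithelium markers 9 were lower, or 17 without Model 1, and none was higher (median -0.74), and their reads made up 2.87% to 3.86% of Blank libraries, 3.35% of Model 1, 1.94% of Model 2 and 1.90% of Model 3. The homeobox gene Cdx2 (-1.78 ± 0.39) and Krt18 (-0.90 ± 0.21) were stable falls, and the most abundant marker, Lypd8, was not called (-0.05 ± 0.31, adjusted p = 0.91). Fibroblast markers were higher in 15 of 16 (median 1.74), and their share of reads went from 0.281% to 0.322% in Blank to 0.797%, 1.81% and 1.26% in Model 1 to 3. Grem1, Pdpn (2.44 ± 0.25) and Pdgfra (1.75 ± 0.19) were the stable members with the smallest p. Smooth muscle markers were higher in 2 of 15, Kcnmb1 (0.77 ± 0.17) and Lmod1 (0.63 ± 0.22), with a median of -0.01; their share was 0.476% to 0.666% in Blank and 0.488% to 0.663% in Model. The most abundant, Acta2, was not called (0.13 ± 0.26, adjusted p = 0.712). Markers of mesenteric fat were higher in 9 of 13 (median 1.97), at 0.0213% to 0.0326% of reads in Blank and 0.0472% to 0.0678% in Model, with the fatty acid binding protein Fabp4 (1.89 ± 0.21), Lpl (2.09 ± 0.27) and Plin4 (1.97 ± 0.27) stable and Cfd (2.75 ± 0.71) the most abundant. Cfd changed on the log2 scale by 2.49 without Blank 2 (adjusted p = 0.055) and 3.84 without Blank 3. Lmod1 lost its call without Blank 1 (adjusted p = 0.134), and also without Blank 2, Blank 3, Model 1, Model 2 or Model 3.

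Transcripts of the exocrine pancreas were set apart, since they were high in single libraries and not across the group. The 37 listed acinar genes took 9.03% of all reads in Model 3 and 1.11% in Model 1, but 0.00624% in Model 2 and 0.0285% to 0.0473% in Blank. A search without any list, for genes that reached 5 CPM and stood at least 20-fold above each other library in Model 3, with Model 1 above them too, found 51 genes, of which 34 were on lists of other organs or cells. Their summed level was 102772 CPM in Model 3, 12209 in Model 1, 43.7 in Model 2 and 171 to 280.0 in Blank. The ratio of Model 3 to Model 1 had a median of 8.44 and ran from 4.18 to 69.2. Of these 51 genes, 35 passed the filter and 32 were called higher in Model, although Model 2 did not share them.

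The leading genes are digestive proenzymes and lipases. Chymotrypsinogen Ctrb1 had 0.0643, 0 and 0 CPM in Blank 1 to 3 and 1370.2, 0 and 11277 CPM in Model 1 to 3, and the pancreatic lipase Pnlip had 0, 0 and 0 CPM in Blank 1 to 3 and 1278, 0 and 11101 CPM in Model 1 to 3. The trypsinogen Prss2 and the carboxypeptidase Cpa1 had the same shape, with 5947 and 7049.7 CPM in Model 3 and 767 and 810.2 in Model 1. Beyond the acinar list, the search returned genes that a colon study might read as its own: the antimicrobial lectin Reg3a had 0, 0 and 0 CPM in Blank 1 to 3 and 16.6, 0 and 256 CPM in Model 1 to 3, the trefoil factor Tff2 had 0, 0 and 0.0738 CPM in Blank 1 to 3 and 13.2, 0 and 111 CPM in Model 1 to 3, and the ribonuclease Rnase1 had 0.579, 29.1 and 3.84 CPM in Blank 1 to 3 and 325, 0.332 and 2844 CPM in Model 1 to 3. Rnase1 was also above Blank 1 in Blank 2, as was the colipase Clps, at 4.24, 17.8 and 4.72 CPM in Blank 1 to 3 and 273, 2.23 and 2293 CPM in Model 1 to 3. Cela1, an elastase that untreated colon also held, had 156, 209 and 158 CPM in Blank 1 to 3 and 854, 22.8 and 6263 CPM in Model 1 to 3, lowest in Model 2, and its fold change did not pass the test (log2 fold change 3.77 ± 1.39, adjusted p = 0.0528). Islet genes were nearly absent: Ins2 had 75 reads and Ins1 27 reads in Model 3, Ins2 had 1 read in Model 1, and neither had a read in the other 4 libraries. Pancreatic polypeptide, Ppy, which the colon makes itself, rose without that pattern, with 84, 67 and 55 reads in Blank 1 to 3 and 275, 336 and 193 in Model 1 to 3 (log2 fold change 1.79 ± 0.23 (SE), adjusted p = 0.000614). No called gene of the matrix, immune, nerve, metabolic and transport lists above was among the 51 or the 13 below.

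Prostate and seminal vesicle transcripts marked untreated libraries instead. The 27 listed genes took 0.422% of reads in Blank 2, 0.0529% in Blank 3, 0.0151% in Blank 1 and 0.00213% to 0.00507% in Model. In Blank 1 and the Model libraries most of these reads were of Ceacam10, with 2317 of 2429 in Blank 1 and 632 of 705 in Model 1. Every library held Ceacam10, at 149, 96.9 and 67.6 CPM in Blank 1 to 3 and 45.9, 22.5 and 16.8 CPM in Model 1 to 3. The share of Blank 1 over Model is therefore mainly that gene. The same search in Blank 2 and Blank 3 found 13 genes with a summed level of 5005 CPM in Blank 2, 531 in Blank 3 and 2.69 to 3.23 in the other 4 libraries, and a ratio of Blank 2 to Blank 3 with a median of 7.93, from 6.90 to 21.7. The secretory gene 9530053A07Rik had 0.257, 2568 and 274 CPM in Blank 1 to 3 and 0.218, 0.427 and 0.134 CPM in Model 1 to 3. Probasin, Pbsn, a prostate secretory protein, had 0, 895 and 113 CPM in Blank 1 to 3 and 0, 0.237 and 0 CPM in Model 1 to 3. Mmp7, a matrix metalloproteinase that is often read as a colitis gene, belonged to the same 13, at 0.193, 46.4 and 6.2 CPM in Blank 1 to 3 and 0.145, 0.095 and 0.469 CPM in Model 1 to 3, and it was highest in Blank 2. The complement protease C1rb and the transglutaminase Tgm4 were the only ones of the 13 that passed the filter, and both were called lower in Model (-4.59 ± 1.43 and -7.31 ± 1.72 on the log2 scale). C1rb had 0.0643, 44.2 and 6.05 CPM in Blank 1 to 3 and 0.508, 0.902 and 0.603 CPM in Model 1 to 3. C1rb changed on the log2 scale by -2.12 without Blank 2 (adjusted p = 0.18), -4.44 without Model 1 (adjusted p = 0.0683), -4.89 without Model 2 (adjusted p = 0.079) and -4.50 without Model 3 (adjusted p = 0.092). Tgm4 changed on the log2 scale by -4.38 without Blank 2.

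**Figure D5:**
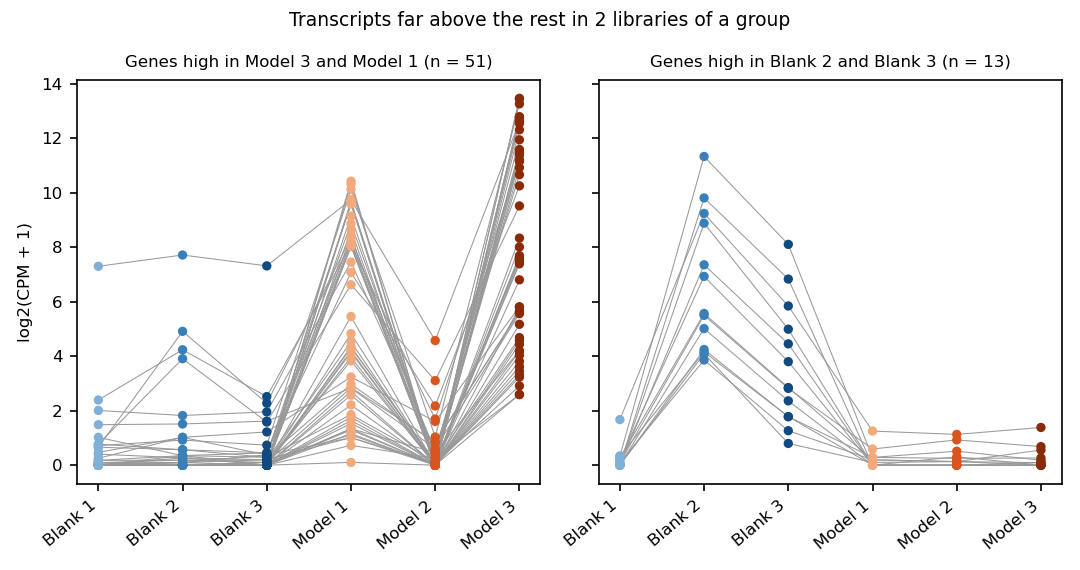
Level as log2(CPM + 1) in each of the 6 libraries of the 51 genes that stood high in Model 3 and Model 1 (left) and the 13 that stood high in Blank 2 and Blank 3 (right), with 1 line per gene. Lines in each panel run nearly parallel between the high libraries, and Model 2 and Blank 1 lie low.

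Traces of other sources were smaller. Some lay mostly in 1 library, and others, such as Hbb-bs and Cyp2e1, were higher in each Model library. Hemoglobin and erythroid genes were higher in 6 of 10 tested genes, with 0.00967% to 0.0106% of reads in Blank, 0.0153% in Model 1, 0.0496% in Model 2 and 0.0176% in Model 3, and the beta globin Hbb-bs had 155, 171 and 209 reads in Blank 1 to 3 and 661, 5146 and 1015 in Model 1 to 3. Fibrinogen chains, known as liver products, had 262 (Fgb), 98 (Fga) and 64 (Fgg) reads in Model 2 and at most 19 in any other library, while albumin, Alb, had at most 33. Cyp2e1, a cytochrome of liver that fat also holds, was higher in each Model library, at 734, 671 and 601 reads against 33, 52 and 130. The ileal bile acid carrier Slc10a2 had 2236 reads in Model 2 and 47 to 113 elsewhere, while other small intestinal genes were low in each library or lower in Model, such as Fabp2 with 2141, 833 and 3837 reads in Blank and 520, 244 and 316 in Model. Lactase, Lct, had 0 to 6 reads. The neutrophil granule gene Ngp had 0, 0.343 and 0.0738 CPM in Blank 1 to 3 and 0.726, 131 and 4.22 CPM in Model 1 to 3. Skeletal muscle genes had 3 called higher, or 1 without Blank 2, Blank 3 or Model 3, and 1 lower of 8 tested. Squamous genes had 1 higher and 2 lower, or 1 lower without Model 2 or Model 3, of 11 tested. Both lists were under 0.1% of reads in each library.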

How the data were processed

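PolyA RNA of mouse colon was sequenced in 9 libraries, 3 each of Blank, Model and CDs. The deposited table gives read counts per gene, which the authors made with fastp 0.22.0, HISAT2 2.1.0 and HTSeq 0.9.1 per the submitters' processing notes. The sources used here name neither the genome build nor the strand setting, so reads of overlapping and antisense genes may not be told apart. The FPKM columns that the authors deposited equal count over length over library total (relative tolerance 1e-06). No column of per-sample values was left unmapped.

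Groups were taken from the sample labels. Genes were filtered with filterByExpr, scaled by TMM and tested with edgeR 4.0.16 in R 4.3.3, in 1 quasi-likelihood fit of all 9 libraries with the contrast Model minus Blank and Benjamini-Hochberg adjustment over 14921 genes. SE is the fold change over the square root of F. Depth was 13868864 to 19940300 reads per library, and values at a few reads are limited by counting. The steps were tested on simulated counts.

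Named are the 12 stable genes at each end of the fold changes, the 8 with the largest rise and the 8 with the largest fall in CPM, up to 3 stable members and the most abundant one of each list described, and the 10 pathways per direction with the largest share called. The fold and CPM ranks left out usual inflammation markers, pancreatic, prostate and seminal vesicle genes, hemoglobin and erythroid genes, and clone names. Immunoglobulin genes and the lists of liver, small intestine, skeletal muscle and squamous genes were not left out. A few genes that these rules name are not reported here. The members, lists and families were chosen with earlier results of these data known, and symbols in some lists were corrected after the table was read. Of 116 lists and families, those described are the ones of interest for this comparison. The alternatives were a fit of 6 libraries, the replicate number as a block, DESeq2 1.42.0, limma 3.58.1 on log2(FPKM + 1), 3 other scalings and 2 other filters. Further ones were removal of the listed pancreatic, prostate and seminal vesicle genes, and fits without 1 or 2 libraries. No set test was run.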

Additional observations from a re-analysis of the deposited data

Results flagged for a closer look

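The pancreatic transcripts were also looked for in the 3 CDs libraries, which no comparison above uses. Over the 26 genes that were high in Model 3 and Model 1 and had 0 reads in each Blank library, the summed level was 212 CPM in CDs 1, 0.538 CPM in CDs 2 and 0.368 CPM in CDs 3, against 0 in Blank, 5449 CPM in Model 1, 0.475 CPM in Model 2 and 46913 CPM in Model 3. These values are given because the signal lies above the Blank level in data outside the comparison. CDs 1 thus held the same transcripts at a level between Model 2 and Model 1. The 13 genes high in Blank 2 and Blank 3 had 2.94, 2.81 and 4.04 CPM in CDs 1 to 3, near the 2.69 to 3.23 CPM of Blank 1 and the Model libraries.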

How the results depend on the processing

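The count of called genes, 6574, ran from 5672 to 7246 with other tools, scalings and filters on all 6 libraries, with 3456 to 3977 higher and 2216 to 3269 lower. The replicate numbers did not pair the samples: deviations of same-numbered Blank and Model libraries correlated at -0.01, -0.04 and -0.04. The fit with the replicate number as a block called 5672 genes, 3456 higher and 2216 lower. Without 1 Blank or Model library the count ran from 4405 to 7007, the higher calls from 2907 to 3691 and the lower calls from 1478 to 3316. Without Blank 2 and Blank 3 it was 1536 (1218 higher and 318 lower), and without Model 1 and Model 3 the lower calls were 1858. These fits have fewer samples and assume that a lone library varies like the others. Without CDs 1, CDs 2 or CDs 3, chosen after seeing the data, 7459 (3561 lower), 6313 and 6442 genes were called. Of 286 called genes named in the text, 160 passed the threshold in every alternative, 22 missed it under the block, 10 in limma and none in DESeq2. The sign turned for Cela1 without Model 1 and Model 3 (log2 fold change -2.94) and for C1rb without Blank 2 and Blank 3 (3.26), the libraries that carry the other organs' reads. Of 148 list and pathway counts, 18 moved by over 1.5 times under the block, 8 in DESeq2 and 119 without Blank 2 and Blank 3. The scalings moved the median of all genes from -0.03 to at most 0.03, and no list described as rising or falling changed the sign of its median. At these depths 3 reads are 0.142 to 0.221 CPM, and fold changes of genes near that level are not precise.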

Other observations

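Signalling families of epithelium and stroma that the comparison above did not cover also moved, with 24.5% of all tested genes called higher and 19.6% lower. The Notch list was higher in 10 and lower in 3 of 23 genes. Hes1, a Notch target and the most abundant of the list, had 91.5, 92.3 and 67.8 CPM in Blank 1 to 3 and 40.7, 30.1 and 32.5 CPM in Model 1 to 3 (log2 fold change -1.29 ± 0.17 (SE), adjusted p = 0.000673), Hes6 (-1.04 ± 0.14) and Nrarp (-1.97 ± 0.48) fell as well, and the receptor Notch2 rose (1.39 ± 0.20). The Hippo list was higher in 9 and lower in 4 of 21: the coactivator Wwtr1 had 39.4, 42.2 and 47.7 CPM in Blank 1 to 3 and 109, 143 and 140.1 CPM in Model 1 to 3 (log2 fold change 1.6 ± 0.13 (SE), adjusted p = 0.000225), and the kinase Lats2 (1.34 ± 0.20) and Amotl1 (0.77 ± 0.11) rose. The lower members were Amot (-1.37 ± 0.21), Vgll4 (-0.62 ± 0.12), Mob1b (-0.51 ± 0.13) and Nf2 (-0.28 ± 0.09). Wnt ligands and frizzled receptors were higher in 9 of 17, among them Fzd4 (1.28 ± 0.11), Fzd1 (1.98 ± 0.21) and the noncanonical ligand Wnt5a (1.39 ± 0.20). In that family 1 gene was lower, or 2 without Blank 2 or Model 3 and 3 without Model 1. TGF-beta superfamily ligands were higher in 13 of 20 and lower in none, or 8 without Blank 2, Model 2 or Model 3. Inhba, which forms activin A, had 7.52, 8.99 and 6.12 CPM in Blank 1 to 3 and 42.1, 136 and 157 CPM in Model 1 to 3 (log2 fold change 3.88 ± 0.54 (SE), adjusted p = 0.0009), and Bmp7 (2.0 ± 0.28) and the most abundant, Bmp4 (1.15 ± 0.25), rose. Bmp1 (1.78 ± 0.25), a protease that its symbol alone places in this family, is counted among the 13. Mob1b lost its call without Model 3 (adjusted p = 0.0589), and also without Model 2. Nf2 lost its call without Model 3 (adjusted p = 0.129), and also without Blank 1, Blank 2, Blank 3 or Model 2.

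Integrins were higher in 17 of 29 and lower in 2, with Itgav (1.57 ± 0.16), Itga9 (1.09 ± 0.12), Itga1 (1.14 ± 0.13) and the most abundant, Itgb1 (0.86 ± 0.15), all higher. The lower ones were the epithelial Itga6 (-0.53 ± 0.18) and Itgb3bp (-0.75 ± 0.15), a binding protein that its symbol alone places in this family. Among claudins of the tight junction 5 of 12 were lower, or 3 without Blank 1, Blank 2, Blank 3 or Model 3. Another 2 were higher, or 1 without Blank 1, Blank 2 or Model 3. Cldn15, a sodium-conducting claudin, had 93.4, 66.9 and 106 CPM in Blank 1 to 3 and 25.9, 9.21 and 19.4 CPM in Model 1 to 3 (log2 fold change -2.30 ± 0.37 (SE), adjusted p = 0.00165), with Cldn23 (-1.29 ± 0.29) and Cldn12 (-0.88 ± 0.21) lower too, and the most abundant, Cldn7, was not called (-0.65 ± 0.24, adjusted p = 0.0564). Cytochromes P450 were called in both directions, 11 higher (6 without Blank 1 and 7 without Model 3) and 12 lower of 41: Cyp4f18 rose (2.36 ± 0.35) while its relative Cyp4f16 fell (-1.06 ± 0.15), as did Cyp39a1 (-1.34 ± 0.22). Cyp2c55, the most abundant, had 687, 425 and 1312 CPM in Blank 1 to 3 and 535, 76.3 and 199 CPM in Model 1 to 3 and was not called (adjusted p = 0.278). Cytosolic ribosomal proteins were lower in 21 of 76 and higher in none (median -0.30), but in 6, 4, 4, 7 and 3 without Blank 1, Blank 2, Blank 3, Model 1 and Model 3. By chromosome, the share of tested genes called higher ran from 21.1% on chromosome 17 to 30.3% on chromosome 1. Itga6 lost its call without Model 2 (adjusted p = 0.121), and also without Blank 1, Blank 2, Blank 3 or Model 3.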
